A study of Mus musculus with 9 samples.

Results

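The genes described here make glutathione, keep it reduced and use it. They are the 10 genes whose symbol in the deposited table is Gclc, Gclm, Gss, Gsr, Gpx1, Gpx4, Gsta4, Gstm1, Gsto1 or Mgst1, out of 56691 genes listed. Of these 10 members, 8 had an FPKM (counted reads scaled by exonic length and library total) of at least 1 in at least 3 libraries and were tested among 11995 genes, and each of the 8 was above that minimum in all 9 libraries. Gsta4 and Mgst1 were below it.

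RNA was sequenced from RAW264.7, a macrophage line of the mouse whose cells turn osteoclast-like under the cytokine RANKL. The control group was not induced, the RANKL group received RANKL, and the RANKL + UD group received RANKL together with UD, the nucleoside uridine. Each group held 3 libraries, and the labels name a separate biological sample for each but not whether the cultures were separate, so p-values measure the spread between these samples. The study's methods give RANKL at 50 ng/mL and harvest after 72 h, and the UD dose of these libraries is not given in the sources used here. No gene was altered in any group, and all libraries come from 1 cell line.

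Glutathione is a small peptide of glutamate, cysteine and glycine, and its cysteine thiol is the main soluble reductant of most cells. Glutamate-cysteine ligase, made of a catalytic subunit (Gclc) and a modifier subunit (Gclm), carries out the rate-limiting step of its synthesis, and glutathione synthetase (Gss) adds the glycine. Peroxidases spend glutathione to reduce peroxides, transferases join it to electrophiles, and glutathione reductase (Gsr) returns the oxidised form to the reduced form with NADPH. Reactive oxygen species take part in RANKL signalling, and the transcription factor NRF2 (Nfe2l2) controls many of these genes through antioxidant response elements.

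The promoters of Gclm and Gstm1 are shown because these genes moved in opposite directions in RANKL + UD cells, and each window runs from 250 bases before to 50 after a RefSeq start site in GRCm38.p6. A link between these sequences and the changes was not tested, and bases outside the windows were not searched. RefSeq windows were matched for 7 of the 10 members, and no window was matched for Gclc, Gsr or Gsta4. The antioxidant response element core was searched as TGACNNNGC on both strands. Capitals in the Gclm window mark its match, which lies on the strand opposite to the gene, 134 to 126 bases before the start site, and reads TGACGGTGC on that strand.
Gclm promoter, chr3:122245307-122245606, plus strand: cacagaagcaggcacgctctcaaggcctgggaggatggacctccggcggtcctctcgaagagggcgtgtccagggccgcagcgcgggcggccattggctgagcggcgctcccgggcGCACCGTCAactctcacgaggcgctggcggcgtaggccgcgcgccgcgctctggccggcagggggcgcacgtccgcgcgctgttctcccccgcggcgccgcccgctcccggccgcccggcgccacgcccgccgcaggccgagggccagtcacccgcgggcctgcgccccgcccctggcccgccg
Gstm1 promoter, chr3:108017924-108018223, minus strand: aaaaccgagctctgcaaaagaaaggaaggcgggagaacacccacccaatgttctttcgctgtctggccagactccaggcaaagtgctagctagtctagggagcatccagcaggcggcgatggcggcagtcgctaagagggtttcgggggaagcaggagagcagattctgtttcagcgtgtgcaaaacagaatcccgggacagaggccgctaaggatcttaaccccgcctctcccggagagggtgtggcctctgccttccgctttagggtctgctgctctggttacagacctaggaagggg
The Gstm1 window shown holds no match to these letters, nor does the other RefSeq window of Gstm1 (chr3:108017769-108018068). Among the 12 windows of the 7 members, the letters were found in 2, those of Gclm and Mgst1, and they were found in 12.4% of 32851 promoter windows in the mouse table. Neither TGANTCA (the AP-1 site, found in 7.81% of all windows) nor GTAAACA (a FoxO site, found in 3.65%) occurred in a member window. The AP-1 letters can overlap an antioxidant response element, as in TGACTCAGC in the window of Me1, a gene of the NADPH list described further on. The Gclm window was 79.7% G and C, against 57.7% in the Gstm1 window shown, 54.7% in the other Gstm1 window and a median of 52.7% over all windows.

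Total counts were 15951800 to 19746862 per library. The summed FPKM of 8 osteoclast markers, among them Ctsk and Acp5, was 46.7 to 49.9 in control, 2639 to 2843 in RANKL and 1665 to 1702 in RANKL + UD libraries. The sum over 7 macrophage markers was 9392 to 9982, 2527 to 2770 and 2203 to 2337 in the same order. Most of that sum was Lyz2 (mean FPKM 8000, 1431 and 1285), and Cd68, also in the list, went the other way with RANKL (549.1, 782.0 and 643.5). Adgre1, also listed, was higher with RANKL + UD than with RANKL (59.4, 10.1 and 12.6), while the rest of the list was lower. A set of 8 markers of epithelium, fibroblasts, endothelium, lymphocytes and red cells summed to at most 0.36. Calcr, an osteoclast marker, had 0 reads in the control libraries, and Cd3e and Hbb-bs had 0 in every library. The osteoclast and macrophage sums moved with every comparison below. Their part in the results was not tested, and in bulk RNA fewer cells of a type and less RNA per cell cannot be told apart.

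Gclc and Gstm1 fell and Gpx4 rose with RANKL, and Gpx1 rose by a call that was lost in 7 of 19 alternative fits. In edgeR's quasi-likelihood test, with p-values adjusted by the Benjamini-Hochberg procedure over all tested genes, 2 of the 8 tested members were higher and 2 lower than in control, where 57.6% of all tested genes passed (27.3% higher and 30.2% lower). With RANKL + UD, Gclc, Gclm and Gsr were higher and Gstm1, Gsto1 and Gpx1 lower than with RANKL, which is 6 of 8 members where 38.8% of all tested genes passed (18.6% higher and 20.2% lower). RANKL + UD against control gave 2 members higher, Gclm and Gpx4, and 3 lower, Gstm1, Gsto1 and Gclc, where 54.0% of all tested genes passed (26.7% higher and 27.3% lower). The comparisons share libraries, since the RANKL group enters the first and second of these and the control group the first and last. The median log2 fold change of the 8 members was -0.02 for RANKL against control, -0.14 for RANKL + UD against RANKL and -0.12 for RANKL + UD against control, against -0.03, 0.00 and 0.00 over all tested genes. After TMM scaling, which corrects for differences in composition between libraries, the libraries of the compared groups did not overlap for 4, 7 and 6 of the 8 members, against 61.0%, 49.4% and 60.1% of all tested genes. By an unadjusted p under 0.05 together with a fold change over 1.5, 1, 0 and 1 members were called, against 25.5%, 10.8% and 22.7% of all tested genes, and the member called was Gstm1.

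**Figure D1:**
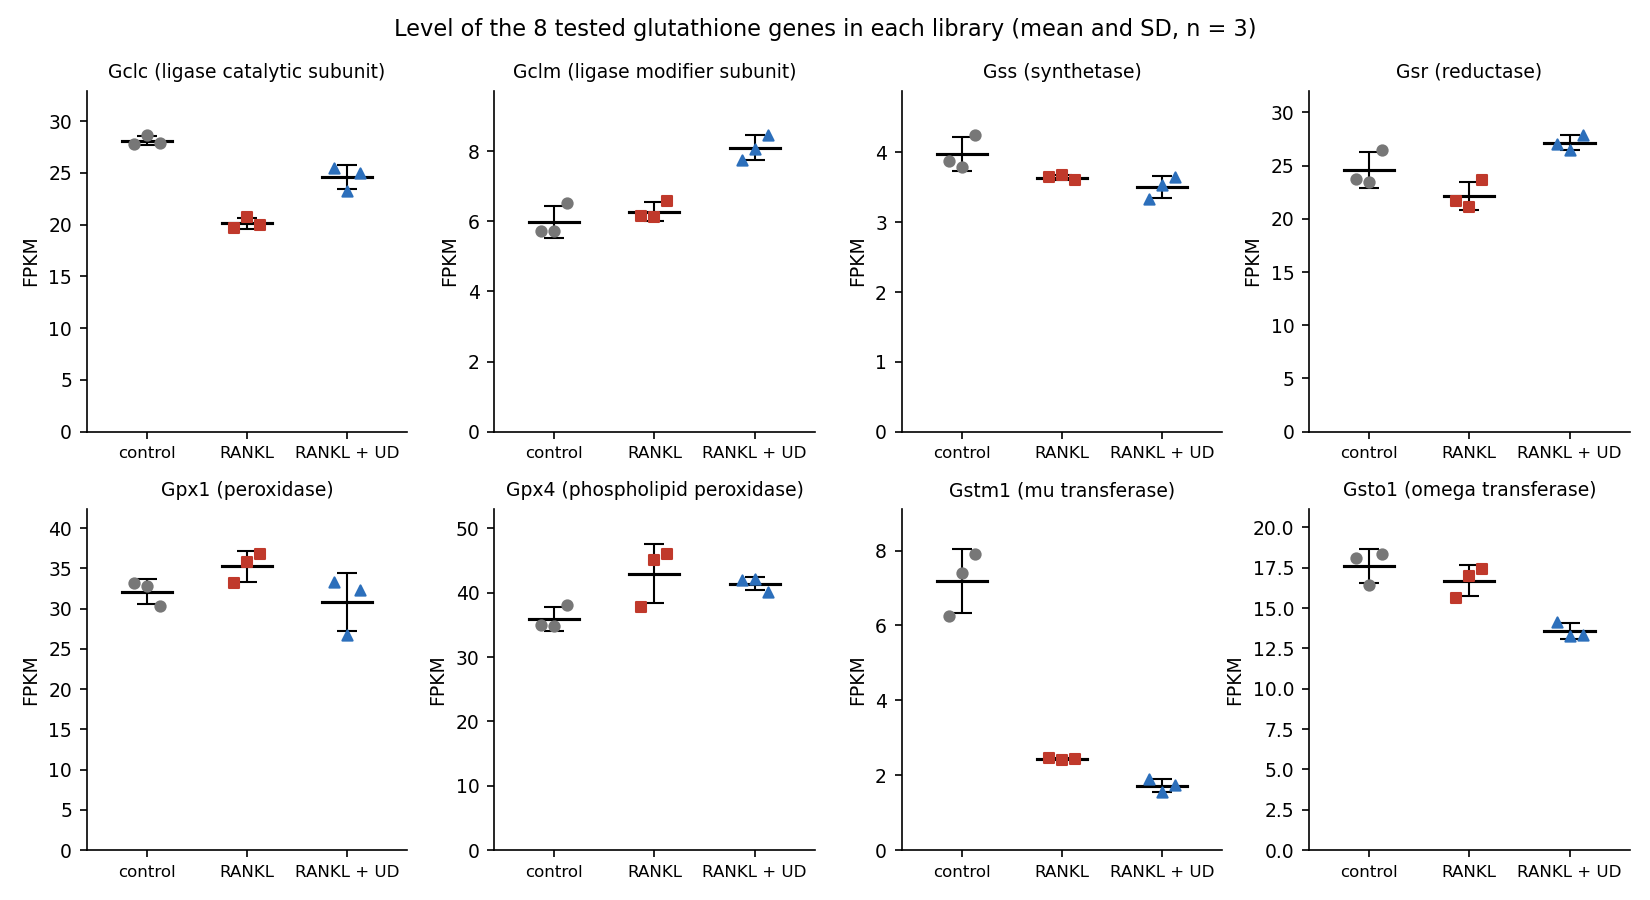
FPKM of the 8 tested members in each library, with 1 panel per gene, the groups on the horizontal axis and FPKM from 0 on the vertical axis. Points are libraries, horizontal lines the mean and bars the SD over 3 libraries. The mean of Gclc was 28.1 in control, 20.1 in RANKL and 24.6 in RANKL + UD libraries, while Gclm was highest with RANKL + UD at 8.10 and Gstm1 highest in control at 7.19.

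Most of the message of these members came from a few genes. Summed over the 10 members, FPKM was 155.6 ± 3.80 in control, 149.6 ± 8.50 in RANKL and 150.9 ± 5.24 in RANKL + UD libraries (SD, n = 3), so the sums of the groups lay within their spread. In control cells Gpx4 made up 23.1% ± 0.609, Gpx1 20.7% ± 1.49, Gclc 18.1% ± 0.645 and Gsr 15.8% ± 0.691 of that sum (SD, n = 3). With RANKL the share of Gclc was 13.5% ± 0.653 and that of Gpx4 28.7% ± 1.51, and with RANKL + UD they were 16.3% ± 0.206 and 27.5% ± 1.39 (SD, n = 3). Gpx4 had the highest mean level of the 8 tested members in all 3 groups. Gss was the lowest in control, and Gstm1 the lowest with RANKL and with RANKL + UD.

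The ligase subunits, which open the synthesis, differed in their response to RANKL. Gclc (ENSMUSG00000032350, chromosome 9, 77661817 to 77701767 as the deposited table lists it, a build that could not be established) carries the active site of the ligase. Its FPKM was 27.8, 28.7 and 27.9 in the control libraries, 19.7, 20.7 and 20.0 in the RANKL libraries, and 25.5, 23.3 and 25.0 in the RANKL + UD libraries. The groups did not overlap in any pairing, with RANKL lowest and RANKL + UD between RANKL and control. The fitted log2 fold change was -0.40 ± 0.0542 (SE) for RANKL against control (edgeR, adjusted p = 2.3e-06). It was 0.20 ± 0.0545 for RANKL + UD against RANKL (adjusted p = 0.0052, edgeR) and -0.19 ± 0.0539 for RANKL + UD against control (adjusted p = 0.00492, edgeR). Each of these calls held in all 19 alternatives run for it.

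Gclm (ENSMUSG00000028124, chromosome 3, 122039206 to 122064381), the modifier subunit that raises the affinity of the ligase for glutamate, did not follow Gclc. Its FPKM was 5.71, 5.71 and 6.52 in control, 6.14, 6.11 and 6.58 in RANKL, and 7.76, 8.07 and 8.46 in RANKL + UD libraries. Control and RANKL libraries overlapped, and every RANKL + UD library stood above both. The log2 fold change of RANKL + UD was 0.28 ± 0.0737 against RANKL (adjusted p = 0.0046, edgeR) and 0.44 ± 0.0746 against control (adjusted p = 3.79e-05, edgeR), which is 21.5% and 35.7% more. For RANKL against control it was 0.16 with a 95% interval of 0.00 to 0.32 (adjusted p = 0.077, edgeR), and the call was made without control replicate 3 (0.22, adjusted p = 0.0159) and with quantile-normalized FPKM (0.21, adjusted p = 0.016, limma). The FPKM ratio of Gclm to Gclc was 0.213 ± 0.0184 in control, 0.312 ± 0.0169 in RANKL and 0.330 ± 0.0222 in RANKL + UD libraries (SD, n = 3). RANKL + UD cells thus had more message for both subunits than RANKL cells, at ratios whose SDs overlap.

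Gss (ENSMUSG00000027610, chromosome 2, 155405101 to 155434730), which completes glutathione, passed the test in no comparison. FPKM was 3.88, 3.79 and 4.25 in control, 3.65, 3.67 and 3.60 in RANKL, and 3.33, 3.53 and 3.65 in RANKL + UD libraries. In FPKM both induced groups lay below control and overlapped each other. After TMM scaling RANKL overlapped control, and every RANKL + UD library lay below every RANKL and control library. The 95% interval of its log2 fold change was -0.22 to 0.15 for RANKL against control, -0.33 to 0.04 for RANKL + UD against RANKL and -0.37 to 0.01 for RANKL + UD against control. Gss overlaps Acss2 on the opposite strand, and Acss2 had a mean FPKM of 3.25 in control, 1.82 in RANKL and 1.34 in RANKL + UD libraries. Whether counting used the strand is not given in the sources used here, so reads of this pair may not be told apart.

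**Figure D2:**
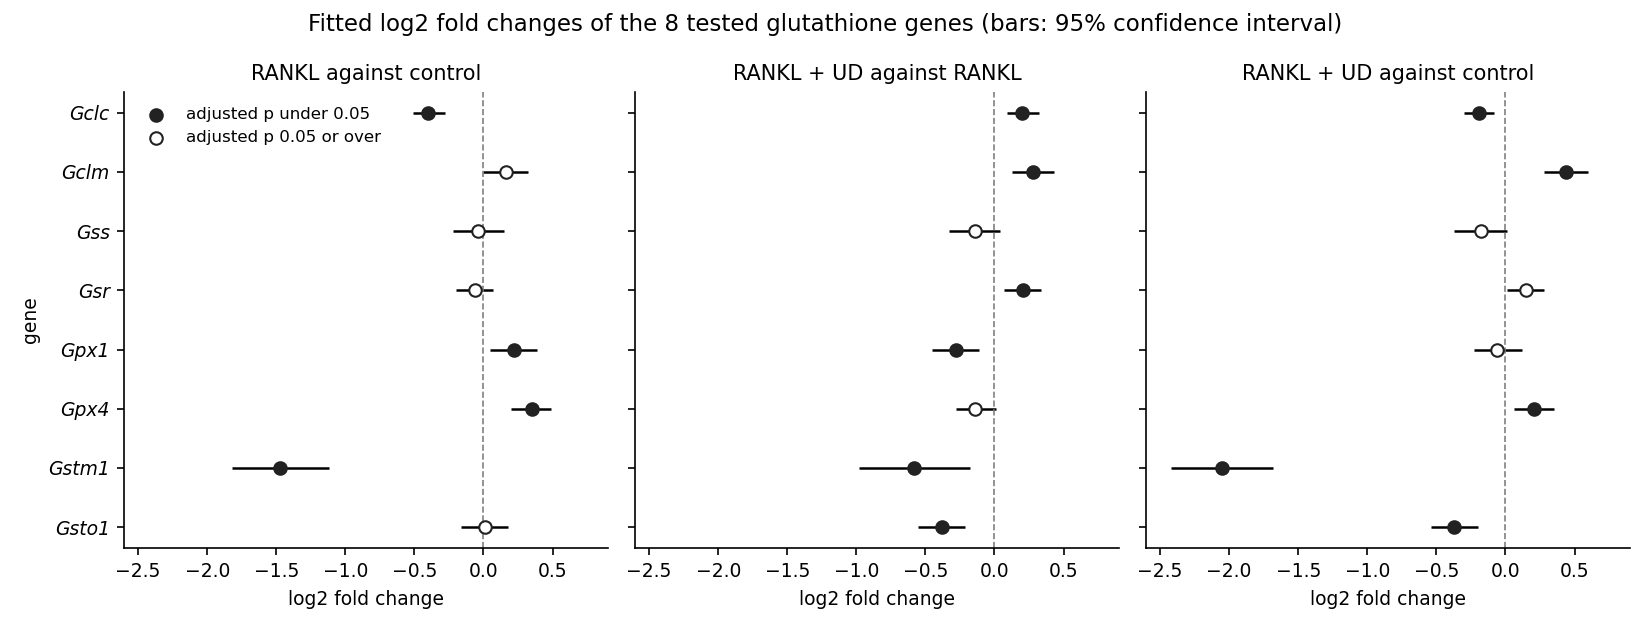
Fitted log2 fold changes of the 8 tested members for the 3 comparisons, with 95% confidence intervals as bars and 1 row per gene. Filled points had an adjusted p under 0.05 in edgeR's quasi-likelihood test over 11995 genes. Gclc lies at -0.40, 0.20 and -0.19 from left to right and Gstm1 at -1.47, -0.58 and -2.05, and the intervals of Gss include 0 in each panel.

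Reduction of oxidised glutathione was represented by Gsr (ENSMUSG00000031584, chromosome 8, 34142551 to 34188191). Its FPKM was 23.8, 23.4 and 26.5 in control, 21.7, 21.1 and 23.6 in RANKL, and 27.1, 26.5 and 27.9 in RANKL + UD libraries. All RANKL + UD libraries were above all RANKL libraries, and the control libraries overlapped with those of RANKL. Gsr rose by 15.5% in RANKL + UD against RANKL (log2 fold change 0.21 ± 0.0644, adjusted p = 0.014, edgeR). That call was lost without RANKL replicate 2 (0.17, adjusted p = 0.0768, edgeR) or without RANKL + UD replicate 3 (0.19, adjusted p = 0.0585, edgeR). For RANKL against control the log2 fold change was -0.06 (95% interval -0.20 to 0.07). Against control, RANKL + UD was at 0.15 ± 0.0644 (adjusted p = 0.06, edgeR), which passed without control replicate 3 (adjusted p = 0.0108, edgeR) or RANKL replicate 3 (adjusted p = 0.0442, edgeR).

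Gpx4 and Gpx1, the peroxidases among the members, were the most abundant of them. Both were called higher with RANKL, a call that Gpx1 lost in 7 of 19 alternatives. Gpx4 (ENSMUSG00000075706, chromosome 10, 79883000 to 79892273) reduces lipid hydroperoxides in membranes and guards against ferroptosis. FPKM was 35.0, 34.8 and 38.1 in control, 37.8, 45.1 and 46.1 in RANKL, and 42.0, 42.1 and 40.2 in RANKL + UD libraries. RANKL replicate 1 lay just below control replicate 3 in FPKM, while after TMM scaling all RANKL libraries were above all control libraries. The log2 fold change for RANKL against control was 0.35 ± 0.0705 (27.1% more, adjusted p = 0.00026, edgeR), a call that held in all 19 alternatives. RANKL + UD did not differ from RANKL by the test (-0.14, 95% interval -0.28 to 0.01, adjusted p = 0.126, edgeR), although without RANKL replicate 1 it did (-0.22, adjusted p = 0.0117, edgeR). Against control it was higher (0.21 ± 0.0709, adjusted p = 0.018, edgeR), a call lost without control replicate 1 (0.19), control replicate 2 (0.18), RANKL + UD replicate 1 (0.19) or RANKL + UD replicate 2 (0.20) and with quantile-normalized FPKM (0.13, adjusted p = 0.171, limma). A pseudogene listed as Gpx4-ps2 had 114 to 243 counts per library, so reads may have been shared with Gpx4.

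Gpx1 (ENSMUSG00000063856, chromosome 9, 108216102 to 108217542), the cytosolic and mitochondrial peroxidase for hydrogen peroxide, had FPKM of 33.3, 32.8 and 30.3 in control, 33.2, 35.8 and 36.9 in RANKL, and 33.4, 26.7 and 32.4 in RANKL + UD libraries. In FPKM the groups overlapped, and after TMM scaling all RANKL libraries were above the libraries of the other groups. The log2 fold change was 0.22 ± 0.0815 for RANKL against control (adjusted p = 0.0251, edgeR) and -0.28 ± 0.0816 for RANKL + UD against RANKL (adjusted p = 0.00999, edgeR). Both calls varied with the scaling, the method and the libraries used. With RLE size factors they were 0.24 (adjusted p = 0.0158, edgeR) and -0.29 (adjusted p = 0.00694, edgeR), and DESeq2 called both. With total counts alone they were 0.13 (adjusted p = 0.166, edgeR) and -0.19 (adjusted p = 0.0618, edgeR), and limma on FPKM, quantile-normalized or not, called neither. The rise was lost without control replicate 3 (0.18), RANKL replicate 2 (0.21) or RANKL replicate 3 (0.19), and the fall without RANKL + UD replicate 2 (-0.18, adjusted p = 0.0847, edgeR). RANKL + UD against control gave -0.06 (95% interval -0.23 to 0.12), which became 0.04 without RANKL + UD replicate 2.

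The largest changes among the members were in Gstm1 (ENSMUSG00000058135, chromosome 3, 107919571 to 107925289), a mu-class transferase that conjugates electrophiles to glutathione. Its FPKM was 6.25, 7.39 and 7.92 in control, 2.45, 2.42 and 2.44 in RANKL, and 1.90, 1.54 and 1.73 in RANKL + UD libraries. The 3 groups formed separate steps with no overlap. The libraries held 155 to 215 reads of Gstm1 in control, 69 to 71 in RANKL and 37 to 55 in RANKL + UD. Gstm1 was 2.77-fold lower with RANKL than in control (log2 fold change -1.47 ± 0.167, adjusted p = 1.62e-07, edgeR) and 4.14-fold lower with RANKL + UD than in control (-2.05 ± 0.177, adjusted p = 2.72e-09, edgeR). RANKL + UD was 1.49-fold lower than RANKL (-0.58 ± 0.193, adjusted p = 0.0216, edgeR), a call lost without RANKL + UD replicate 2 (-0.50, adjusted p = 0.0797, edgeR) or replicate 3 (-0.58, adjusted p = 0.0508, edgeR). Gstm1 lies in a cluster of close relatives. Among them Gstm4 had FPKM of 0.98 to 1.68, while Gstm2, Gstm3, Gstm5, Gstm6 and Gstm7 had at most 1 read in a library, so a split of reads between near-identical copies cannot be told from these counts.

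Of all tested genes, those whose centred log2 CPM profile over the 9 libraries was nearest to that of Gstm1 were Dusp6, Smpdl3a and Cd300ld, with root mean square differences of 0.0953, 0.096 and 0.103. Dusp6, a phosphatase of the MAP kinase ERK, had a mean FPKM of 28.7 in control, 9.08 in RANKL and 6.71 in RANKL + UD libraries. Cd300ld, a myeloid surface receptor, stood at 130.0, 43.1 and 30.4 in the same order.

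Gsto1 (ENSMUSG00000025068, chromosome 19, 47843409 to 47853229), an omega-class transferase with thiol transferase and dehydroascorbate reductase activity, differed in the RANKL + UD group. FPKM was 18.1, 16.4 and 18.4 in control, 15.6, 17.0 and 17.5 in RANKL, and 14.1, 13.3 and 13.3 in RANKL + UD libraries. Every RANKL + UD library was below every other library, and control and RANKL libraries overlapped. The log2 fold change was -0.38 ± 0.0819 against RANKL (23.3% less, adjusted p = 0.000827, edgeR) and -0.37 ± 0.0822 against control (22.8% less, adjusted p = 0.000636, edgeR), and both calls held in all 19 alternatives. For RANKL against control it was 0.01 (95% interval -0.16 to 0.18), with the sign turning to -0.08 when total counts replaced TMM scaling.

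Gsta4 (ENSMUSG00000032348, chromosome 9, 78090056 to 78116631), an alpha-class enzyme for lipid aldehydes, had 0 to 2 reads in a library and 4 in all. Mgst1 (ENSMUSG00000008540, chromosome 6, 138117314 to 138133753), a membrane-bound transferase and peroxidase, had 0 to 3 reads in a library and 5 in all. In every library both were at or under a floor of 3 reads, which corresponds to an FPKM of 0.12 to 0.149 for Gsta4 and 0.0755 to 0.0934 for Mgst1. A difference between groups was not detectable for them at this depth.

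The members were set beside 85 other genes of the pathway in 8 lists, of which 55 were tested. The lists were chosen with earlier results of these data known. For RANKL against control 20 were higher and 17 lower, with a median log2 fold change of 0.03, which is 67.3% called beside 57.6% of all tested genes. These 20 include Gstt1, Gstt4 and Gstp1, which met the expression minimum only through the groups in which they were high. The 17 lower include Ggct, which met it only through control, where it was highest. For RANKL + UD against RANKL 13 were higher and 14 lower, with a median of 0.01, which is 49.1% called beside 38.8% of all tested genes. Counts in the lists below stand against the same shares. When library totals replaced the TMM factors, the higher calls of the second comparison numbered 21.

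This list holds both chains of the cystine importer (Slc7a11 and Slc3a2), the neutral amino acid carriers Slc1a4 and Slc1a5, and Cbs and Cth, which make cysteine from homocysteine. All 5 tested genes were higher with RANKL than in control (median log2 fold change 0.52, with 27.3% of all tested genes called higher). All 5 were called lower with RANKL + UD than with RANKL (median -1.02, with 20.2% of all tested genes called lower), where Gclc and Gclm were higher, and the call for Slc1a5 depends on the scaling. Cbs had at most 18 reads in a library and was not tested. The 2 comparisons share the RANKL libraries.

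Slc7a11 had FPKM of 4.77, 5.36 and 4.72 in control, 6.33, 6.65 and 5.54 in RANKL, and 3.15, 3.33 and 3.21 in RANKL + UD libraries, with no overlap between groups. Its log2 fold change was -1.02 ± 0.0713 for RANKL + UD against RANKL (adjusted p = 6.83e-10, edgeR) and -0.62 ± 0.0722 against control (adjusted p = 2.85e-07, edgeR). Cth was at 1.60, 2.01 and 1.62 in control, 6.45, 6.77 and 6.99 in RANKL, and 1.99, 2.11 and 1.99 in RANKL + UD libraries. RANKL raised Cth by 2.03 ± 0.133 on the log2 scale (adjusted p = 2.46e-11, edgeR), and RANKL + UD was lower than RANKL by a log2 fold change of -1.82 ± 0.13 (adjusted p = 9.39e-10, edgeR). Cth in RANKL + UD and control libraries overlapped and differed by 0.21 ± 0.148 (adjusted p = 0.238, edgeR), and limma on quantile-normalized FPKM called them different (0.24, adjusted p = 0.0162). Slc1a4 changed by 0.68 ± 0.106 and -1.59 ± 0.113 in the first and second comparisons. Slc1a5 changed by 0.52 ± 0.0465 with RANKL against control and by -0.15 ± 0.0461 with RANKL + UD against RANKL (adjusted p = 0.0163, edgeR). Its FPKM was 47.1, 50.9 and 50.4 in control, 64.4, 67.7 and 68.0 in RANKL, and 63.4, 64.1 and 64.6 in RANKL + UD libraries, so the induced groups overlapped in FPKM. The lower call of Slc1a5 was lost with total counts (-0.06, adjusted p = 0.339, edgeR), with limma on FPKM (-0.06, adjusted p = 0.29) or quantile-normalized FPKM (-0.09, adjusted p = 0.134), and without RANKL replicate 2 or RANKL + UD replicate 1 or 2 (-0.14 each).

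**Figure D3:**
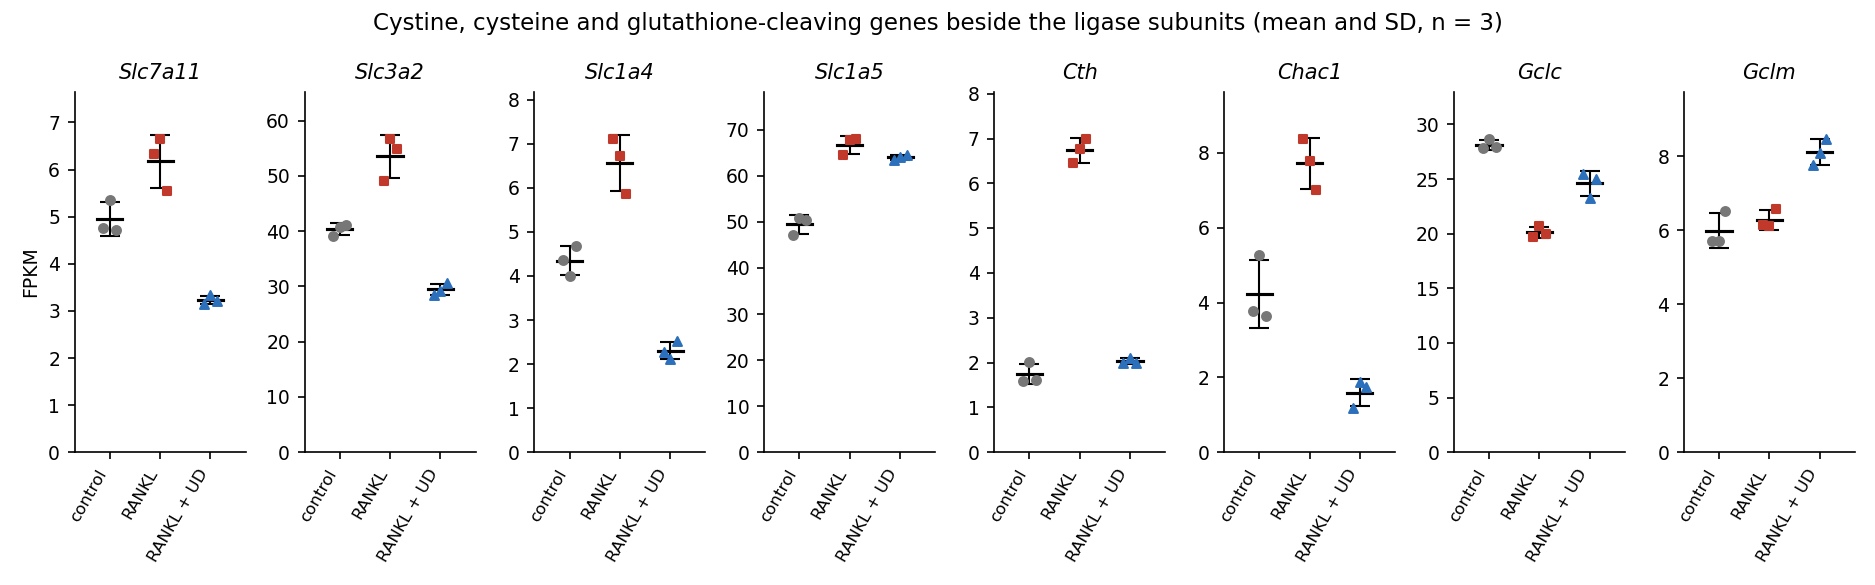
FPKM in each library for the cysteine supply genes Slc7a11, Slc3a2, Slc1a4, Slc1a5 and Cth and the glutathione-cleaving enzyme Chac1, beside the ligase subunits Gclc and Gclm. Points are libraries in the groups named on the horizontal axis, lines the mean and bars the SD over 3 libraries, and each vertical axis starts at 0. Slc7a11 stood at 4.72 to 5.36 in control, 5.54 to 6.65 in RANKL and 3.15 to 3.33 in RANKL + UD libraries, where Gclm was highest at 7.76 to 8.46.

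Breakdown and export held genes of either direction. Chac1, which cleaves glutathione in the cytosol, had FPKM of 3.77, 5.26 and 3.64 in control, 8.37, 7.78 and 7.01 in RANKL, and 1.18, 1.87 and 1.73 in RANKL + UD libraries, and the groups did not overlap. Its log2 fold change was 0.95 ± 0.167 for RANKL against control (adjusted p = 5.24e-05, edgeR) and -2.37 ± 0.19 for RANKL + UD against RANKL (adjusted p = 4.33e-09, edgeR). The constitutive relative Chac2 was higher with RANKL + UD than with RANKL (0.52 ± 0.16, adjusted p = 0.0127, edgeR) but not without RANKL replicate 2 (0.47, adjusted p = 0.0568, edgeR), and it overlaps the tested gene Asb3 on the opposite strand. Dpep2, a membrane dipeptidase, fell in both steps (-1.60 ± 0.0748 and -1.14 ± 0.0857), and it overlaps Dus2 and the tested gene Gm45752 on the opposite strand. On the same strand it overlaps ENSMUSG00000115067-Dpep2. Summed reads in control, RANKL and RANKL + UD were 4645, 1594 and 702 for Dpep2 and 952, 881 and 952 for Dus2. They were 248, 80 and 44 for Gm45752 and 79, 19 and 7 for ENSMUSG00000115067-Dpep2. Abcc4, an export pump, changed by -1.59 ± 0.0717 and then 0.66 ± 0.0736. Of the 14 genes listed, 7 were tested, with 3 higher and 3 lower, Ggct included, with RANKL and 2 higher and 3 lower with RANKL + UD against RANKL.

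NADPH feeds glutathione reductase. Of 8 tested genes of its supply, 1 was higher and 4 lower with RANKL than in control, and 3 were higher and 0 lower with RANKL + UD than with RANKL. These counts stand beside 57.6% and 38.8% of all tested genes called in the same comparisons. Me1, the cytosolic malic enzyme, had FPKM of 3.44, 4.69 and 5.07 in control, 6.45, 6.29 and 6.04 in RANKL, and 11.5, 11.8 and 11.4 in RANKL + UD libraries, higher at both steps (log2 fold changes 0.60 ± 0.108 and 0.80 ± 0.1). G6pdx, the entry enzyme of the pentose phosphate pathway, changed by -0.70 ± 0.0566 and then 0.25 ± 0.057 (adjusted p = 0.00164, edgeR), and it overlaps Ikbkg on the opposite strand. Idh1 was at -0.79 ± 0.0448 and H6pd at -0.72 ± 0.14 with RANKL against control. Pgd, the next dehydrogenase of that pathway, was at 0.16 ± 0.0491 with RANKL + UD against RANKL (adjusted p = 0.0143, edgeR), a call lost without RANKL replicate 1 (0.14), RANKL replicate 2 (0.15), RANKL + UD replicate 2 (0.15) or RANKL + UD replicate 3 (0.15).

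Of the other peroxidases, 6 relatives of Gpx1 had at most 14 reads in a library and Prdx6 was tested. Prdx6, a peroxiredoxin that uses glutathione, had a mean FPKM of 34.0 ± 1.59 in control, 21.4 ± 0.992 in RANKL and 25.0 ± 0.717 in RANKL + UD libraries (SD, n = 3). It was lower with RANKL than in control (-0.58 ± 0.0534, adjusted p = 6.88e-09, edgeR). With RANKL + UD it was at 0.14 ± 0.0539 against RANKL (adjusted p = 0.0467, edgeR), and this call was lost in 12 of 19 alternatives. These were DESeq2 (adjusted p = 0.0841), no filter (0.0781), edgeR's own filter (0.0536), RLE factors (0.0717), quantile-normalized FPKM (0.051), and leaving out control replicate 1 or 2, RANKL replicate 1 or 2 or any RANKL + UD library (0.10 to 0.15).

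**Figure D4:**
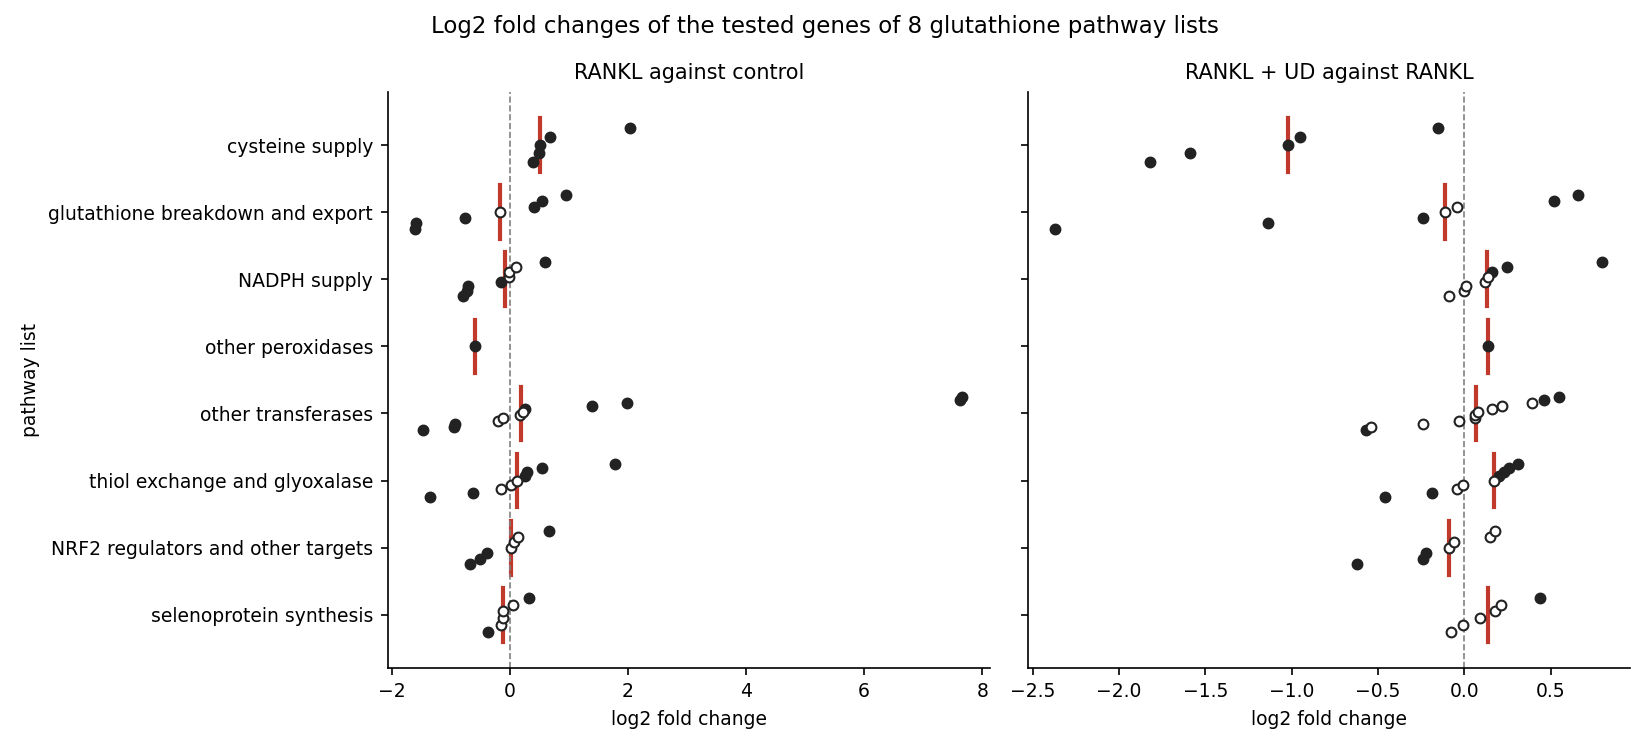
Log2 fold changes of the 55 tested genes of the 8 pathway lists, with RANKL against control on the left and RANKL + UD against RANKL on the right. Each point is a gene, filled where its adjusted p was under 0.05 in edgeR, the vertical bar is the median of its list, and points are spread within a list by rank. The 5 cysteine supply genes all lie above 0 on the left (median 0.52) and below 0 on the right (median -1.02), while the other lists hold points on both sides of 0 or, for the other peroxidases, 1 point.

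The transferase family was reordered beyond Gstm1 and Gsto1. Hpgds, the haematopoietic prostaglandin D synthase, had the highest mean FPKM of the 29 transferases and related enzymes in control (35.0 ± 0.418), followed by Mgst3 (25.2 ± 2.64) and Gsto1 (17.6 ± 1.07; SD, n = 3). With RANKL, Gstt1 (17.1 ± 1.42) and Gsto1 (16.7 ± 0.95) stood within each other's spread at the top, followed by Mgst3 (12.3 ± 1.44) and Hpgds (12.0 ± 0.503). With RANKL + UD, Gsto1 (13.6 ± 0.485), Mgst3 (13.6 ± 1.16), Hpgds (13.4 ± 0.229) and Gstt1 (12.2 ± 1.72) lay within their spread. Hpgds overlaps the tested gene Gm17147 on the opposite strand.

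Gstt1, a theta-class transferase, had 7 reads in the 3 control libraries together and 1519 in the RANKL libraries, a ratio of 196 per counted read (95% interval 94.8 to 488, counting error only). Of the 7 control reads 6 were in control replicate 1, and without that library the fitted log2 fold change moved from 7.63 to 9.64, so the size of the ratio rests on it. Its FPKM was 0.23, 0.03 and 0 in control, 16.5, 16.1 and 18.7 in RANKL, and 14.1, 10.8 and 11.6 in RANKL + UD libraries. RANKL + UD was lower than RANKL by a log2 fold change of -0.57 ± 0.137 (adjusted p = 0.0024, edgeR), which was -0.49 with an adjusted p of 0.326 by limma at a pseudocount of 0.1. Gstt4 had 1 read in control and 288 in RANKL libraries (ratio 260, 95% counting interval 46.3 to 10300). The control read was in control replicate 3, without which the fitted log2 fold change moved from 7.66 to 9.57, and all control libraries were under the floor of 3 reads, so the size of this ratio is not fixed by these counts. For Gstt4, RANKL + UD against RANKL was at 0.39 ± 0.205 (adjusted p = 0.149, edgeR), a difference that limma on log2(FPKM + 1) called (0.41, adjusted p = 0.0355). Gstt3 rose at both steps, with FPKM of 1.58, 1.77 and 1.53 in control, 4.24, 3.92 and 3.92 in RANKL, and 6.37, 5.46 and 5.82 in RANKL + UD libraries (0.46 ± 0.104 for RANKL + UD against RANKL, adjusted p = 0.00136, edgeR). Gstt2 was at 0.84 to 1.07 in all libraries. Gstt1 and Gstt4 met the expression minimum through the groups in which they were high.

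Gstp1, a pi-class enzyme, was higher with RANKL than in control (1.99 ± 0.219, adjusted p = 9.5e-08, edgeR), and its near-identical neighbour Gstp2 had at most 2 reads in a library. In control Gstp1 had FPKM of 0.96, 1.70 and 1.01, so it too met the expression minimum only through the groups in which it was high. Mgst2, a microsomal enzyme, was higher with RANKL + UD than with RANKL (0.55 ± 0.1, adjusted p = 0.000175, edgeR), with FPKM of 7.03, 7.39 and 6.52 against 10.7, 11.6 and 10.2, and it overlaps Gm37261 on the same strand. Of the 25 transferases outside the members, 12 were tested and 11 were at or under 3 reads in every library. Of the 12, 5 were higher, Gstt1, Gstt4 and Gstp1 included, and 3 lower with RANKL than in control, and 2 were higher and 1 lower with RANKL + UD than with RANKL.

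**Figure D5:**
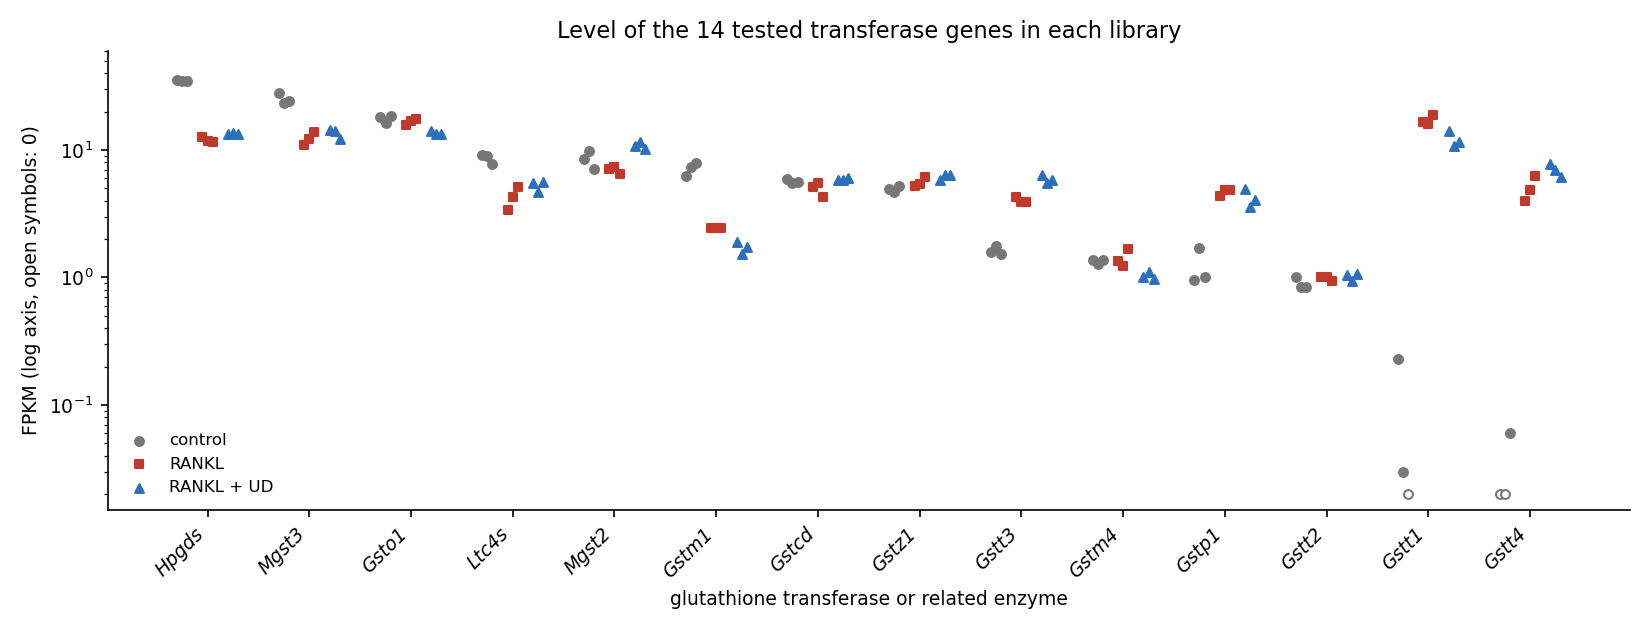
FPKM on a log axis of the 14 tested transferases and related enzymes in each library, in the order of their control means. Circles are control, squares RANKL and triangles RANKL + UD libraries, and open symbols at the bottom stand for 0. Gstm1 steps down over the groups (7.19, 2.44 and 1.72 on average), Gsto1 stands between 13.3 and 18.4, and Gstt1 and Gstt4 are at 0.23 or less in control and at 3.95 or more in the other groups.

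Thiol exchange enzymes use glutathione to reduce mixed disulfides. Glrx, the cytosolic glutaredoxin, changed by -1.35 ± 0.078 with RANKL against control and by 0.31 ± 0.0809 with RANKL + UD against RANKL (adjusted p = 0.00491, edgeR). Glrx2 changed by -0.62 ± 0.0941 and 0.26 ± 0.0957 (adjusted p = 0.0384 for the second, edgeR), the second call being lost in 7 of 19 alternatives: DESeq2 (0.24, adjusted p = 0.0586), no filter (0.26, adjusted p = 0.0771), quantile-normalized FPKM (0.17, adjusted p = 0.0899), and without RANKL replicate 1 (0.18) or any RANKL + UD library (0.24 to 0.27). Hagh, which releases glutathione from lactoylglutathione, was at 1.79 ± 0.0754 and -0.46 ± 0.0694, and it overlaps Fahd1 on the opposite strand. All 9 genes of this list were tested, with 4 higher and 2 lower in each of these comparisons.

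Of 9 regulators and other targets of NRF2, 7 were tested, with 1 higher and 3 lower with RANKL than in control, and 0 higher and 3 lower with RANKL + UD than with RANKL. Nfe2l2 had FPKM of 66.0, 64.1 and 72.4 in control, 41.0, 37.2 and 41.6 in RANKL, and 41.2, 40.8 and 39.9 in RANKL + UD libraries. It was lower with RANKL than in control (-0.67 ± 0.0556, adjusted p = 1.29e-09, edgeR), as was Keap1, its cytosolic inhibitor (-0.50 ± 0.0718), which overlaps Gm16754 on the opposite strand. RANKL + UD and RANKL libraries overlapped for Nfe2l2, with a log2 fold change of -0.06 ± 0.0562 (adjusted p = 0.431, edgeR), and the sign turned to 0.03 with total counts. Bach1, a repressor at antioxidant response elements, was lower with RANKL + UD than with RANKL (-0.24 ± 0.0575, adjusted p = 0.00203, edgeR). Maff, a small Maf partner, changed by 0.66 ± 0.145 and -0.62 ± 0.144, and it overlaps the tested gene ENSMUSG00000121075 on the opposite strand. Mafk was at -0.22 ± 0.0811 with RANKL + UD against RANKL (adjusted p = 0.0338, edgeR), a call lost with total counts (-0.14, adjusted p = 0.192), no filter (adjusted p = 0.0761), limma on FPKM (-0.13, adjusted p = 0.155) and without RANKL replicate 2 (-0.21), RANKL replicate 3 (-0.21), RANKL + UD replicate 1 (-0.16) or RANKL + UD replicate 2 (-0.22).

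Gpx1 and Gpx4 are selenoproteins, and 6 genes that make selenocysteine or insert it were all tested, with 1 higher and 1 lower with RANKL and 1 higher and 0 lower with RANKL + UD against RANKL. Secisbp2, which binds the insertion element of selenoprotein messages, was higher with RANKL than in control (0.32 ± 0.0893, adjusted p = 0.00451, edgeR). Eefsec, the selenocysteine elongation factor, was at -0.37 ± 0.144 with RANKL (adjusted p = 0.0352, edgeR) and at 0.44 ± 0.144 with RANKL + UD against RANKL (adjusted p = 0.0183, edgeR). Both Eefsec calls rest on RANKL replicate 1, whose FPKM of 3.37 lay below 5.02 and 4.89 in the other RANKL libraries, and without it the values were -0.20 and 0.28 and passed no threshold, nor did they with quantile-normalized FPKM (-0.24 and 0.37). The first call was also lost without control replicate 3 (-0.29), and the second without RANKL + UD replicate 2 (0.35) or replicate 3 (0.40).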

How the data were processed

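The deposited table holds raw read counts per gene, which the authors did not normalize, and FPKM values, which the authors computed from those counts, exonic length and the total count of each library; recomputation gave the deposited FPKM for 100% of genes. All 18 value columns were used, and the column name Model was read as RANKL, the name the paper gives that group. Aligner and counter are not given in the sources used here. The submitters' processing notes name mm10, but 1435 of 52073 shared genes and 0 of 10 members have the coordinates of GRCm38, so coordinates are printed as listed.

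Counts were tested with edgeR 4.0.16 (quasi-likelihood, TMM, 9 libraries in one fit, no covariate, Benjamini-Hochberg, threshold 0.05) in R 4.3.3, for genes that reached an FPKM of 1 in 3 or more libraries. TMM factors were 0.959 to 0.962 for RANKL and 1.01 to 1.03 for other libraries. An exact test of 3 against 3 libraries cannot go below p = 0.1. Replicates differed beyond sampling noise (chi-square per degree of freedom 2.83 to 8.22), so none were merged in the tests. The count ratios of Gstt1 and Gstt4 did use counts summed over the libraries of a group. Their intervals therefore leave out the spread between libraries. The scripts were tested on simulated data with 50 genes changed at each size. There edgeR called, with the right sign, 22% of log2 changes of 0.2, 68% of 0.5 and 92% of 1. Fewer genes changed in the simulation than were called in the data, so these shares may not hold for the data. Alternatives were DESeq2 1.42.0, limma 3.58.1 on log2(FPKM + 1) or log2(FPKM + 0.1), quantile normalization, other scalings and filters, the 6 libraries of a comparison, a replicate block and each library left out.

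Named are all members, from each pathway list the 3 called genes with the largest fold change in RANKL against control and in RANKL + UD against RANKL, and the 3 genes nearest in profile to the member that changed most. Genes named beyond this rule were chosen after their values were seen, among them Slc3a2, Chac2, Gstt2 and the overlapping genes. Members and lists were chosen with earlier results of these data known. Promoters are from RefSeq (GRCm38.p6). The value of 1 marker gene is not reported here.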

Additional observations from a re-analysis of the deposited data

How the results depend on the processing

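Depth limits Gstm1 most among tested members, at 37 to 55 reads in RANKL + UD libraries. Gsta4 and Mgst1 enter without the filter but stay at the floor. With an unadjusted p under 0.05 and a fold over 1.5 in place of the adjusted p, members higher and lower numbered 0 and 1 for RANKL against control, 0 and 0 for RANKL + UD against RANKL (10.8% of all genes) and 0 and 1 for RANKL + UD against control, and other pathway genes 10 higher in the first comparison and 2 higher and 7 lower in the second. Members higher with RANKL numbered 1 with total counts, limma on log2(FPKM + 1) or log2(FPKM + 0.1), and those higher with RANKL + UD than in control 1 with quantile normalization. Other pathway genes higher with RANKL + UD than RANKL numbered 21, 22 and 21 under total counts and the limma fits. Scaling moved all genes alike: 48.0% of calls of RANKL + UD against RANKL were higher under TMM, 66.2% under total counts and 45.2% under RLE factors, and for RANKL against control 47.5% and 36.8% under TMM and total counts, where the median gene moved from -0.027 to -0.116 (log2). Leaving out 1 library gave 1 to 2 members higher with RANKL, 1 to 4 lower with RANKL + UD than RANKL (1 without RANKL + UD replicate 2) and 1 to 3 higher with RANKL + UD than control. The sign turned for uncalled values: Gss for RANKL against control, 0.07 by quantile normalization and -0.07 to 0.01 with 1 library left out; Gsto1, -0.08 with total counts, -0.07 and -0.08 by limma and -0.04 to 0.06 with 1 library left out; Gpx1 for RANKL + UD against control, -0.12 to 0.04; and Nfe2l2 for RANKL + UD against RANKL, 0.03 with total counts and by both limma fits. Causes were not tested. Whether the replicate numbers pair the samples could not be told from deviations from means of 3 libraries. Correlations of these deviations were -0.03 to 0.10 for same-numbered libraries and -0.10 to 0.06 for others, and the highest were between libraries numbered 1 (0.10, 0.09 and 0.07). The replicate block left 2 members higher and 2 lower, 3 and 3, and 3 and 3 in the comparisons as ordered above, the added call being Gsr in RANKL + UD against control (0.15, adjusted p = 0.0334, edgeR), and other pathway genes 20 and 17, and 14 and 14. Of 456 member values under alternatives, 420 kept direction and side of the threshold.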
